A study of Mus musculus with 10 samples.

Results

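The comparison between the third and the first day in induction medium, D3 against D1, covers the second interval sampled while mouse embryonic fibroblasts were being turned towards pluripotent stem cells. It used 4 of the 10 libraries of the series, 2 at D1 and 2 at D3, chosen by their labelled day, with replicate 1 and replicate 2 treated as blocks because the series speaks of independent experiments. Fibroblasts are connective tissue cells, and here they were primary cells at passage 2, taken from E13.5 embryos of Oct4-GFP males (CBA/CaJ × C57BL/6J) mated with 129S4/SvJaeJ females. All cells, those at D1 included, had been exposed for 48 hours to retroviruses carrying Jdp2, Sall4, Esrrb and Glis1 before they were placed in a medium named iCD3, for 24 hours at D1 and 72 hours at D3. There was thus no group without the 4 factors, and a change between these days cannot be assigned to the factors, the medium or the time in culture. Each library is bulk polyadenylated RNA from a mixed culture in which, at each day, an unknown share of cells had begun to change, so fewer cells of a type and less RNA per cell cannot be told apart.

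Reprogramming replaces the expression programme of one cell type with another. Fibroblasts make and anchor to a collagen-rich matrix and pull on it with actin bundles, while pluripotent cells of the early embryo use a network of transcription factors built around Oct4, Sox2 and Nanog, grow as compact epithelial colonies, and make little fibrillar matrix. Of the delivered factors, Esrrb is an orphan nuclear receptor and Sall4 a zinc finger protein of that network, Glis1 is a zinc finger protein of the egg and early embryo, and Jdp2 is a leucine zipper protein that binds AP-1 and CRE sites, where it can repress transcription.

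The D1 libraries held 3299701 (replicate 1) and 1477281 (replicate 2) estimated counts and the D3 libraries 3303693 and 1365989, so 3 counts were worth 0.909, 2.03, 0.908 and 2.20 CPM (counts scaled to a common library total) in that order. Intervals and limits from counts below cover counting error only. From the gap between gene length and effective length in the tables, mean fragments measured 153 and 142 bases in the replicate 1 libraries of D1 and D3 and 200 and 199 bases in those of replicate 2. The share of counts on mitochondrial genes went from 4.94% to 3.29% in replicate 1 and from 3.27% to 5.48% in replicate 2, in opposite directions. The labels tie no replicate to a particular culture or embryo, and p-values therefore reflect only how much these libraries differ, some of which may be technical. The summed level of 8 fibroblast markers was 2016 and 2377 CPM at D1 and 725 and 837 CPM at D3, with none at 0, against 9832 and 10520 CPM at D0. The summed level of 6 pluripotency markers was 109 and 69.9 CPM at D1 and 361 and 128 CPM at D3, and Dppa5a was still at 0 in D3 replicate 2. A list of 12 macrophage markers summed to 31.1 and 14.8 CPM at D1 and 24.99 and 11.1 CPM at D3, and a list of 12 endothelial markers to 77.7 and 78.4 CPM at D1 and 93.0 and 95.5 CPM at D3. A list of 8 adipocyte markers summed to 26.3 and 29.7 CPM at D1 and 48.5 and 63.6 CPM at D3, higher in both replicates. A list of 14 extraembryonic endoderm genes summed to 1772 and 2141 CPM at D1 and 975 and 1364 CPM at D3, lower in both. The members did not move together. In the test below, 1 of its 11 tested members was higher (Foxq1, log2 3.43), beside 0.831% of all genes, and none was lower. The log2 change was above 0 for 5 and below 0 for 6, the latter including Col4a1 (-0.88) and Lamb1 (-0.51). Neural and skeletal muscle lists moved in opposite directions in the replicates. The part of other cell types in the results below was not tested.

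Between D1 and D3, 206 of 12752 tested genes changed (adjusted p under 0.05), which is 1.62% of them. Of these, 106 were higher at D3 (0.831%) and 100 were lower (0.784%). All 206 changed at least 2-fold. The higher genes had a median log2 change of 2.39 and the lower genes one of -1.67, while over all genes tested the median was -0.0081, with 49.2% above 0 and 50.8% below. In 201 of the 206, both D3 libraries lay on the same side of both D1 libraries. Over all genes tested, both D3 libraries were above both D1 libraries for 18.5% and below both for 18.9%. Across all 12752 genes, which are not independent replicates, 60.3% changed with the same sign in both replicates. For scale, D1 against D0, which shares the D1 libraries, called 1350 genes (10.6%), and D7 against D5, a step of equal length at the end of the course, called 20 (0.157%).

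The calls depend on pooling both replicates. With 1 of the 4 libraries left out, the count was 20 (without D1 replicate 1), 12 (without D1 replicate 2), 8 (without D3 replicate 1) or 63 (without D3 replicate 2), and 6 genes, Crybb1, Emb, Selenop, Sprr2a2, Trh and Trpm1, were called under each omission. Without D5 replicate 1 or D5 replicate 2, which are not part of the contrast but enter the same fit, the count was 759 or 730.

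**Figure D1:**
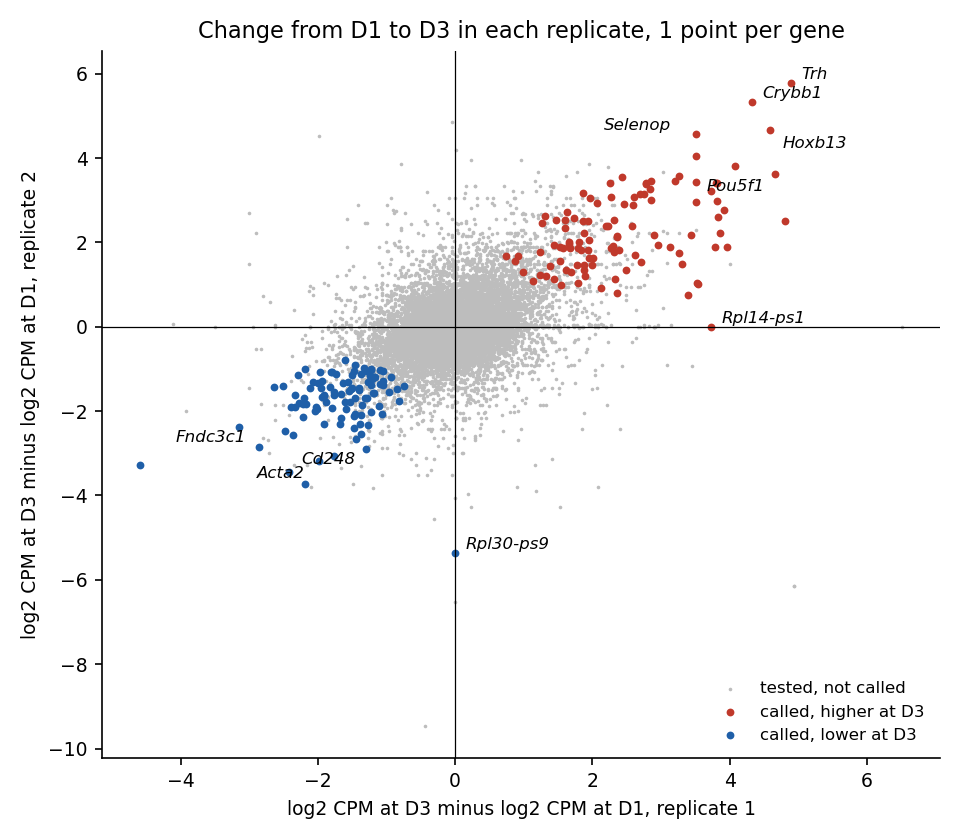
Each point is 1 of 12752 genes; the x axis is its log2 CPM at D3 minus that at D1 in replicate 1 and the y axis the same in replicate 2. Most of the 106 genes called higher (red) and the 100 called lower (blue) lie near the diagonal. Some lie well off it, such as Enpp3 (3.39 in replicate 1 and 0.76 in replicate 2). Rpl14-ps1 and Rpl30-ps9 sit on an axis because each was at or near 0 in the libraries of 1 replicate.

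The delivered factors themselves were measured first. All groups had been exposed to them, so their levels cannot check the labelled day. None of the 4 was called. Esrrb had 2134.5 and 2338 CPM at D1 (replicate 1, then replicate 2, as in all pairs of values below) and 1899.7 and 2866 CPM at D3, log2 0.06 ± 0.26 (SE; n = 2 libraries per day, as throughout), adjusted p = 0.958. Sall4 had 2555.5 and 2572 CPM at D1 and 1600.7 and 3081 CPM at D3. Jdp2 had 1677 and 762 CPM at D1 and 1492 and 886 CPM at D3. For all of these the D1 and D3 libraries overlapped. Glis1 was at 122 and 266 CPM at D1 and 61.6 and 310 CPM at D3, also overlapping. Reads from the viruses and from the cells' own copies of these genes cannot be told apart in gene totals.

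Some genes of the pluripotency network were called higher at D3, a minority of its tested members. Of the core trio, Pou5f1 was higher and Nanog and Sox2 did not pass the test. Of 15 tested regulators of the naive state, 4 were higher and none lower, beside 0.831% of all genes. Of 20 tested markers of pluripotent cells 4 were higher and none lower. The log2 change was above 0 for 13 of the regulators and 19 of the markers, against 49.2% of all genes. With 1 D1 or D3 library left out, 0 to 2 of the regulators and 0 to 3 of the markers were called. Many of these genes were silent at D0 and D1 and entered the test only because they were expressed later, so such counts were in part bound to be rises, and they are given as a description.

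Pou5f1 (chromosome 17, 35506018 to 35510772, plus strand, GRCm38), which encodes Oct4, had 7.25 and 1.41 CPM at D1 and 136 and 30.3 CPM at D3. Both D3 libraries were above both D1 libraries, although D3 replicate 2 remained several-fold below D3 replicate 1. The log2 change was 4.03 ± 0.66 (adjusted p = 0.0138). The call was lost with DESeq2, with TPM, without the replicate block, and without D1 replicate 1, D1 replicate 2 or D3 replicate 1. Nanog, a homeobox factor of the same core, had 9.97 and 0.706 CPM at D1 and 52.9 and 10.4 CPM at D3. It was higher at D3 inside each replicate, and the lower D3 library barely exceeded the higher D1 library. Its log2 change of 2.41 ± 0.56 had an adjusted p of 0.0565 and was not called. Sox2, an HMG-box factor, was already at 90.0 and 67.8 CPM at D1 and had 153 and 80.7 CPM at D3. Its D1 and D3 libraries overlapped (log2 0.54 ± 0.24, adjusted p = 0.328).

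Among regulators of the naive state, Klf2, a Krüppel-like factor, had 0.907 and 0.706 CPM at D1 and 22.1 and 13.3 CPM at D3. The replicates were close on both days and far apart between days, with a log2 change of 4.38 ± 0.56 (adjusted p = 0.00292). Its relative Klf4 went from 7.86 and 22.6 CPM to 33.7 and 33.3 CPM, with no overlap, and was not called (adjusted p = 0.132). Klf5 had 39.0 and 86.2 CPM at D1 and 45.6 and 82.1 CPM at D3 (log2 0.05 ± 0.52, adjusted p = 0.987). Tfcp2l1, a grainyhead-family factor of naive cells, had 4.53 and 4.24 CPM at D1 and 40.7 and 18.5 CPM at D3. Its D3 libraries were both well above D1 (log2 2.83 ± 0.48, adjusted p = 0.0154). Nr0b1, the nuclear receptor Dax1, had 3.63 and 4.24 CPM at D1 and 15.4 and 28.1 CPM at D3, and here replicate 2 rose more (log2 2.38 ± 0.41, adjusted p = 0.0171). Zscan10, a zinc finger partner of Oct4, had no count at D1 and 10.5 and 2.22 CPM at D3. From 39 counts over the D3 libraries it was at least 12.8-fold higher, against a floor of 3 counts over the D1 libraries (adjusted p = 0.0171).

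The called markers were mostly surface or RNA-binding proteins. Tdgf1, the Nodal co-receptor Cripto, had no count at D1 and 11 and 2.96 CPM at D3, at least 13.8-fold higher (adjusted p = 0.00721). Dppa2, a DNA-binding protein of early embryos, was likewise without counts at D1 and had 7.26 and 1.48 CPM at D3, at least 8.87-fold higher (adjusted p = 0.0171). Both genes appeared in both replicates, at a lower level in replicate 2. Lin28a, which blocks let-7 maturation, had 0.302 and 1.41 CPM at D1 and 12.2 and 3.70 CPM at D3. From 3 counts to 47, it had a depth-scaled ratio of 15.4 with a 95% counting interval of 4.97 to 77.6 (adjusted p = 0.0316). L1td1, an RNA-binding protein of pluripotent cells, had 3.02 and 0 CPM at D1 and 42.7 and 12.6 CPM at D3, log2 3.94 ± 0.47 (adjusted p = 0.00289). Zfp42, the Rex1 gene often used as a late reporter, stood at 0.604 and 0 CPM at D1 and 4.65 and 3.70 CPM at D3 and narrowly missed the threshold (adjusted p = 0.0562). Dppa5a, another late marker, had 4.36 CPM in D3 replicate 1 and no count in D3 replicate 2, and was not called (adjusted p = 0.272). Its means at D5 and D7 were 195 and 332 CPM.

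Surface markers used to stage reprogramming moved in both directions, with 3 of 12 higher (Kit, Alpl and Epcam) and 2 lower (Thy1 and Cd44), beside 0.831% and 0.784% of all genes. With 1 D1 or D3 library left out, 0 to 1 was called in each direction. Kit, a receptor tyrosine kinase, had 13 and 7.06 CPM at D1 and 47.4 and 31.1 CPM at D3 (log2 1.95 ± 0.29, adjusted p = 0.00721). Alpl, the alkaline phosphatase used to stain pluripotent colonies, went from 3.02 and 5.65 CPM to 18.9 and 10.4 CPM (log2 1.95 ± 0.43, adjusted p = 0.0441). Thy1, a fibroblast surface protein, had 53.8 and 53 CPM at D1 and 18.3 and 18.5 CPM at D3, with replicates nearly equal on both days (log2 -1.54 ± 0.27, adjusted p = 0.0171). Cd44, the hyaluronan receptor, went from 39.3 and 109 CPM to 14.5 and 21.5 CPM (log2 -1.94 ± 0.38, adjusted p = 0.0235). None of these groups overlapped between days.

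**Figure D2:**
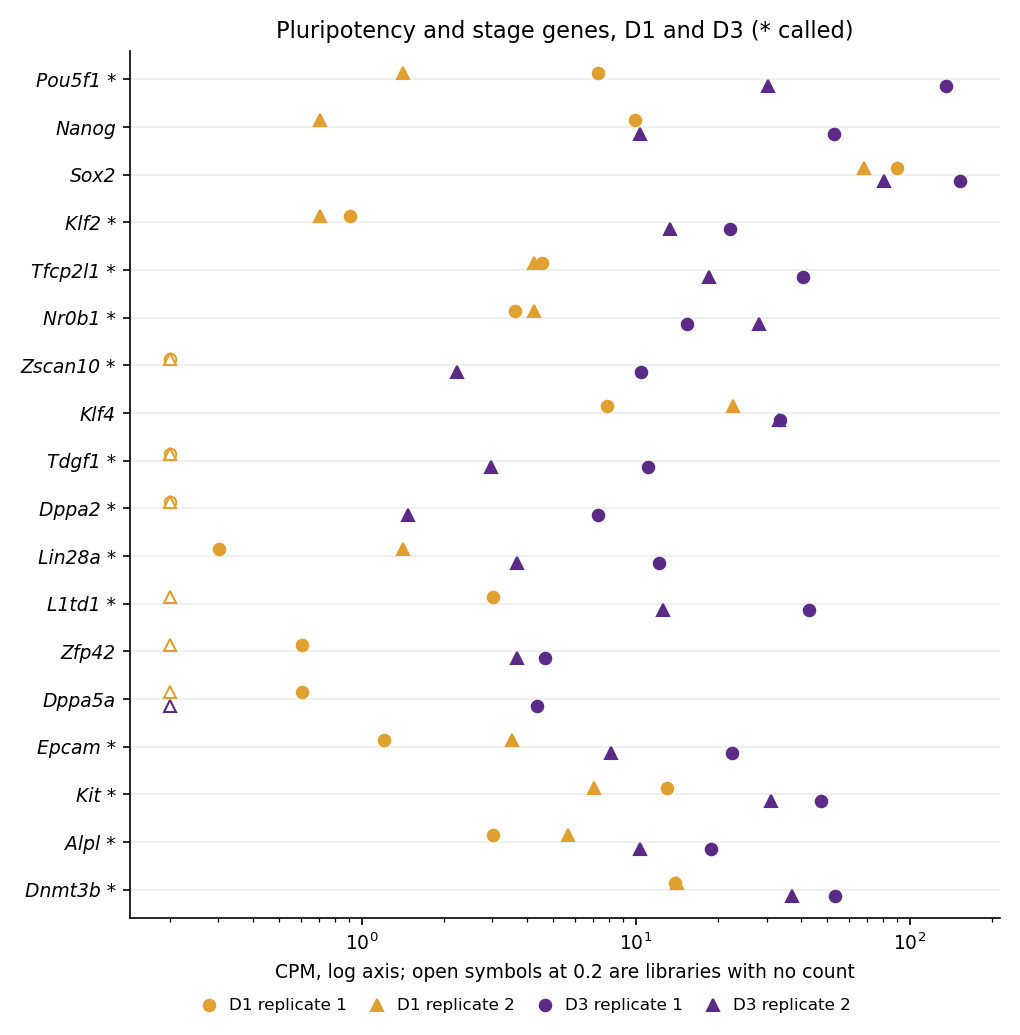
CPM on a log axis for 18 pluripotency and stage genes in the 2 D1 libraries (orange) and the 2 D3 libraries (purple), circles for replicate 1 and triangles for replicate 2; an asterisk marks a called gene and open symbols mark libraries with no count. For the called genes every D3 value lies right of both D1 values, and Nr0b1 is the only called gene shown whose D3 replicate 2 exceeds D3 replicate 1.

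Outside that network, the 6 calls that held under each omission were all rises and belong to none of the gene lists. Selenop (chromosome 15, 3268547 to 3280508, plus strand), the secreted selenium carrier, had 178 and 74.9 CPM at D1 and 2032 and 1804 CPM at D3. It was high in both D3 libraries and had stood at a mean of 15.6 CPM at D0. Its log2 change was 3.95 ± 0.35 (adjusted p = 0.00083, which with Trpm1 is the smallest of the comparison). Trh, the precursor of thyrotropin-releasing hormone, had 6.65 and 0.706 CPM at D1 and 221 and 82.9 CPM at D3 (log2 5.12 ± 0.53, adjusted p = 0.000935). Crybb1, a lens crystallin, had 1.81 and 1.41 CPM at D1 and 52.0 and 88.8 CPM at D3 (log2 5.18 ± 0.54, adjusted p = 0.000935). Both had few counts at D1 and were well above that in each D3 library.

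Trpm1, a cation channel of retina and melanocytes, went from 3.63 and 7.06 CPM to 61.6 and 82.9 CPM (log2 3.83 ± 0.36, adjusted p = 0.00083). Sprr2a2, a small proline-rich protein of epithelia, went from 3.02 and 4.24 CPM to 96.5 and 61.4 CPM, log2 4.52 ± 0.45 (adjusted p = 0.000889), with the reservation that near-identical copies of this family share reads. Emb, the membrane glycoprotein embigin, had 43.5 and 22.6 CPM at D1 and 242 and 175 CPM at D3 (log2 2.66 ± 0.27, adjusted p = 0.000889). All were several-fold higher in each replicate. Besides these genes, without Emb, the 12 largest rises among genes with a mean of at least 10 CPM held Hoxb13, Cldn5, Nrgn, Rpl14-ps1, Frem2, L1td1 and Pou5f1. Rpl14-ps1, a ribosomal protein pseudogene, had 4.53 CPM at D1 and 70.3 CPM at D3 in replicate 1 and no count in either replicate 2 library. Its call therefore rests on 1 replicate, and RSEM's sharing of reads among near-identical copies makes it uncertain.

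Posterior and primitive streak genes appeared at low levels. Of 12 tested primitive streak genes, 3 were higher (Hoxb13, Foxa2 and T), and of 17 tested Wnt targets, 3 (T, Sp5 and Notum), beside 0.831% of all genes. With 1 D1 or D3 library left out, 0 to 1 of the first list and 0 to 3 of the second were called. In the first list 3 tested genes, and in the second 2, had no count at D1 and could only rise. The counts are therefore given as a description. Hoxb13, the most posterior gene of the Hoxb cluster, had 0.302 and 0 CPM at D1 and 26.2 and 19.98 CPM at D3. From 1 count to 117, the ratio was 115 with a 95% counting interval of 20.3 to 4594 (adjusted p = 0.0171). T, which encodes Brachyury, had no count at D1 and 11.9 and 2.22 CPM at D3, at least 14.5-fold higher (adjusted p = 0.0171). Both genes were absent from the counts of both D0 libraries.

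Notum, a secreted Wnt inhibitor that is itself a Wnt target, had 4.83 and 15.5 CPM at D1 and 34.0 and 52.5 CPM at D3 (log2 2.27 ± 0.33, adjusted p = 0.00708). Sp5, a zinc finger target of the same pathway, went from 14.5 and 28.3 CPM to 74.4 and 109 CPM (log2 2.16 ± 0.33, adjusted p = 0.00815). Neither overlapped between days. Axin2, the usual general reporter of Wnt signalling, had 94.6 and 115 CPM at D1 and 54.3 and 107 CPM at D3 and was not called (adjusted p = 0.489). Foxa2, an endoderm and node factor, had 1.21 and 4.24 CPM at D1 and 18.6 and 16.3 CPM at D3 (log2 2.94 ± 0.67, adjusted p = 0.0489). Of 30 tested Hox genes, 24 had a log2 change below 0, against 50.8% of all genes, but beside the rise of Hoxb13 only Hoxc10 fell past the threshold, from 23.3 and 27.6 CPM to 5.23 and 10.4 CPM (log2 -1.81 ± 0.36, adjusted p = 0.0266).

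Fibroblast markers were the group with the largest share of falls. Of 14 tested fibroblast markers 7 were lower and none higher, beside 0.784% of all genes called lower, and their median log2 change was -1.49. The median lay between -1.58 and -1.44 under the alternative settings run, while the number called was 0 to 2 with any 1 D1 or D3 library left out. Pdgfrb, the receptor for platelet-derived growth factor B, had 114 and 153 CPM at D1 and 24.7 and 42.2 CPM at D3. Every D3 value was below every D1 value (log2 -2.04 ± 0.26, adjusted p = 0.00297). Postn, the matrix protein periostin, went from 319 and 252 CPM to 91.5 and 120 CPM (log2 -1.44 ± 0.29, adjusted p = 0.0289). Fbln2, fibulin 2, went from 561 and 906 CPM to 114 and 407 CPM (log2 -1.71 ± 0.33, adjusted p = 0.0219). Members that did not pass included Pdgfra, at 330 and 217 CPM at D1 and 76.4 and 169 CPM at D3 (adjusted p = 0.118), and Dcn, which was below 5 CPM in all 4 libraries.

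Cd248 (chromosome 19, 5068078 to 5070682, plus strand), the stromal surface protein endosialin, had the smallest p among the falls. It had 60.4 and 94.0 CPM at D1 and 10.2 and 16.3 CPM at D3, with a mean of 623 CPM at D0. The log2 change was -2.54 ± 0.27 (adjusted p = 0.00108), and of the omissions of single libraries only that of D3 replicate 1 ended the call. Creb3l1, a factor that drives collagen secretion, went from 53.8 and 79.8 CPM to 13.7 and 15.5 CPM (log2 -2.15 ± 0.27, adjusted p = 0.00292). Cyp26b1, which degrades retinoic acid, went from 138 and 264 CPM to 26.7 and 69.6 CPM (log2 -2.13 ± 0.27, adjusted p = 0.00292). Rpl30-ps9, another ribosomal pseudogene, had 94.0 CPM in D1 replicate 2, 1.48 CPM in D3 replicate 2 and no count in replicate 1, so this call too comes from 1 replicate.

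Collagens formed the group with the largest share of falls after the markers, 7 of the 17 tested members of the list lower and none higher, beside 0.784% of all genes called lower, with a median log2 change of -1.16 (-1.19 to -1.01 over the alternatives; 0 to 2 called with a D1 or D3 library left out). Col1a1 (chromosome 11, 94936224 to 94953042, plus strand), a chain of type I collagen and also in the marker list, had 416 and 816 CPM at D1 and 198 and 193 CPM at D3 (log2 -1.55 ± 0.28, adjusted p = 0.0171). Its partner chain Col1a2 went from 716 and 826 CPM to 247 and 240 CPM (log2 -1.65 ± 0.27, adjusted p = 0.0123). The D3 replicates agreed closely for both chains. Col12a1, which coats type I fibrils, went from 297 and 225 CPM to 46.8 and 83.6 CPM (log2 -2.06 ± 0.30, adjusted p = 0.00721). Col3a1, another fibrillar collagen, had 65.3 and 55.8 CPM at D1 and 66.5 and 53.3 CPM at D3 (adjusted p = 0.992). Outside the list 2 collagen genes, named after their values were seen, were higher. Col9a2, a cartilage collagen, had 121 and 53 CPM at D1 and 819 and 480 CPM at D3 (log2 2.87 ± 0.49, adjusted p = 0.0154). Col6a5, a chain of collagen VI, went from 4.53 and 3.53 CPM to 16.9 and 25.2 CPM (log2 2.33 ± 0.49, adjusted p = 0.0324).

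The enzymes and glycoproteins that assemble this matrix had 8 of 30 members lower and none higher, beside 0.784% of all genes called lower. Their median log2 change was -0.80, and 0 to 2 were called with a D1 or D3 library left out. The called members included 4 of the lysyl oxidases, which crosslink collagen and elastin. Lox had 30.5 and 48.0 CPM at D1 and 6.97 and 11.8 CPM at D3 (log2 -2.09 ± 0.37, adjusted p = 0.0171). Loxl3 went from 17.2 and 27.6 CPM to 5.81 and 3.70 CPM (log2 -2.09 ± 0.42, adjusted p = 0.0291). For both, every D3 library was below every D1 library. Bgn, the proteoglycan biglycan, went from 1786 and 2056 CPM to 473 and 657 CPM (log2 -1.79 ± 0.29, adjusted p = 0.0123). Fbn1, the microfibril protein fibrillin, went from 197 and 241 CPM to 46.5 and 96.2 CPM (log2 -1.67 ± 0.30, adjusted p = 0.0171). Fn1, fibronectin, had 2013 and 3197.5 CPM at D1 and 1179 and 2296 CPM at D3, overlapped between days and was not called (adjusted p = 0.289).

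The contractile genes, many of them targets of serum response factor, had 4 of 20 lower and none higher, beside 0.784% of all genes called lower. The log2 change was below 0 for 19 of 20, against 50.8% of all genes, with a median of -0.92. Acta2 (chromosome 19, 34241090 to 34255590, minus strand), smooth muscle actin, had 147 and 318 CPM at D1 and 36.6 and 34.0 CPM at D3, after 4722 CPM on average at D0. Its log2 change was -2.50 ± 0.45 (adjusted p = 0.0171). Tagln, the actin-bundling protein transgelin, went from 120 and 318 CPM to 34.9 and 37.0 CPM (log2 -2.34 ± 0.49, adjusted p = 0.0344). The D3 libraries met at nearly the same level although the D1 libraries differed more than 2-fold. Cald1, caldesmon, went from 503 and 470 CPM to 208 and 190 CPM (log2 -1.29 ± 0.23, adjusted p = 0.0171). All 4 contractile calls, with Actg2, went when any 1 of the D1 or D3 libraries was left out.

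**Figure D3:**
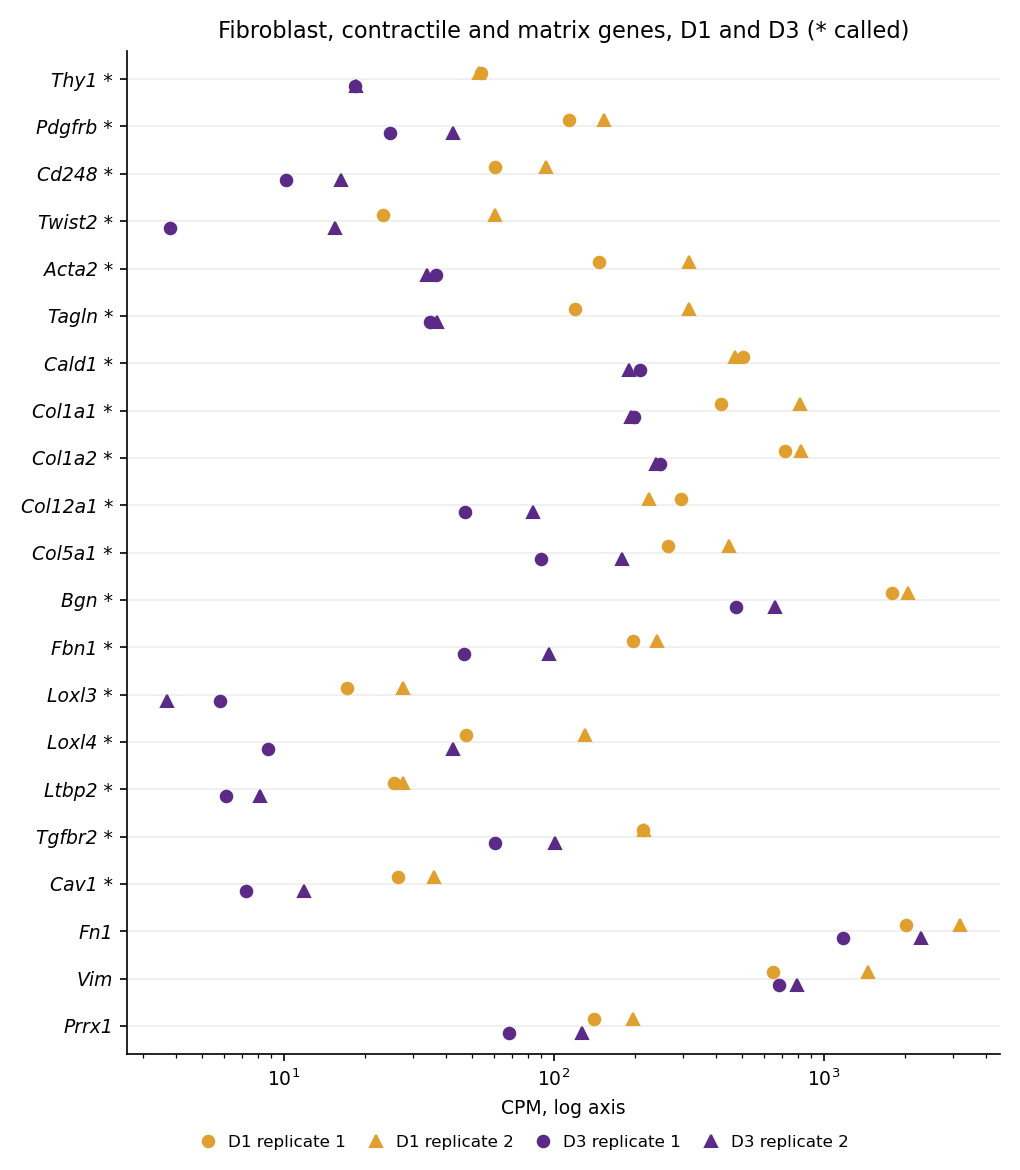
CPM on a log axis for 21 fibroblast, contractile and matrix genes in the 2 D1 libraries (orange) and the 2 D3 libraries (purple), circles for replicate 1 and triangles for replicate 2; an asterisk marks a called gene. The called genes separate with D3 to the left, whereas Fn1 and Vim overlap between days.

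All 18 tested mesenchymal regulators had a log2 change below 0 (median -0.55), against 50.8% of all genes. Twist2 alone was called, beside 0.784% of all genes called lower. Twist2, a helix-loop-helix factor of mesenchyme, had 23.3 and 60.8 CPM at D1 and 3.78 and 15.5 CPM at D3 (log2 -2.24 ± 0.48, adjusted p = 0.0385). Its relative Twist1 had 47.1 and 65.7 CPM at D1 and 33.1 and 46.6 CPM at D3 (adjusted p = 0.515). Snai2, which represses E-cadherin, had 15.7 and 12 CPM at D1 and 11.6 and 15.5 CPM at D3 (adjusted p = 0.957).

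On the epithelial side, 1 of 25 tested junction genes was called, a rise, beside 0.831% of all genes called higher. Epcam, the epithelial adhesion molecule of pluripotent cells, had 1.21 and 3.53 CPM at D1 and 22.4 and 8.14 CPM at D3 (log2 3.02 ± 0.62, adjusted p = 0.0312). Cdh1, E-cadherin, already had 111 and 77.7 CPM at D1, against a mean of 15.3 at D0, and stood at 130 and 121 CPM at D3 (log2 0.42 ± 0.22, adjusted p = 0.435). None of 7 tested epithelial regulators passed, beside 0.831% of all genes called higher. The log2 change was above 0 for all 7, against 49.2% of all genes, with a median of 2.07. In 3 of them both D3 libraries were above both D1 libraries, against 18.5% of all genes. Of the 7, 2 had no count at D1 and could only rise, so these counts are a description. Among TGF-β genes, 2 of 13 were lower, beside 0.784% of all genes. Tgfbr2, the type II receptor, went from 214 and 215 CPM to 60.7 and 101 CPM (log2 -1.46 ± 0.26, adjusted p = 0.0171). Ltbp2, a latent TGF-β binding protein, went from 25.7 and 27.6 CPM to 6.10 and 8.14 CPM (log2 -1.94 ± 0.30, adjusted p = 0.0102).

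None of 9 tested genes of the AP-1 family, the leucine zipper factors whose sites Jdp2 also binds, was called, beside 1.62% of all genes. Junb had 254 and 521 CPM at D1 and 132 and 289 CPM at D3 (adjusted p = 0.345), and Jund 150 and 289 CPM at D1 and 306 and 380 CPM at D3 (adjusted p = 0.329). The promoters of genes that changed were searched for TGANTCA, the AP-1 site, on both strands, in RefSeq windows (GRCm38.p6) from 250 bases before to 50 bases after each start site. A window was at hand for 62 of the 100 lower genes, 79 of the 106 higher genes and 9645 of the 12745 tested symbols. These are 62%, 74.5% and 75.7%, under the 80% set for such a comparison, so a comparison of the shares is void and they are given for the matched genes only. The site was in 10 of 62 lower genes (16.1%), 2 of 79 higher genes (2.53%) and 545 of 9645 tested genes (5.65%), and in 7.81% of all 32851 windows. Stretches around the site are shown for 6 of the lower genes and for Ezr, 1 of the 2 higher genes, 5′ to 3′ in the direction of the gene with the matched bases in capitals. The matched bases read TGAGTCA or TGACTCA, which are the same site on opposite strands, and their surroundings differ.

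Anxa2: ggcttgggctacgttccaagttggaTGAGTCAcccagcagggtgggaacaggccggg
Emp1: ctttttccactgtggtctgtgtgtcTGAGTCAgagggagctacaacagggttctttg
Cald1: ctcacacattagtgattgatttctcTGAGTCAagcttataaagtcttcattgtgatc
S100a11: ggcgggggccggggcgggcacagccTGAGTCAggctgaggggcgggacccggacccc
Prss23: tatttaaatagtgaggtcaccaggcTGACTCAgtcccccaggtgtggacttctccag
Col6a1: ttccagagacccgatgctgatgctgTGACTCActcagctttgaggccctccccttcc
Ezr: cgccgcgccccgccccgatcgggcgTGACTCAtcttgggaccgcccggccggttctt

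In GRCm38.p6 these stretches lie at chr9:69453563-69453619 (plus strand, Anxa2), chr6:135362761-135362817 (plus, Emp1), chr6:34709222-34709278 (plus, Cald1), chr3:93520433-93520489 (plus, S100a11), chr7:89518319-89518375 (minus, Prss23), chr10:76726103-76726159 (minus, Col6a1) and chr17:6782781-6782837 (minus, Ezr), all before the listed start site. Anxa2, a membrane-binding annexin, had 362 and 483 CPM at D1 and 120 and 124 CPM at D3 (log2 -1.77 ± 0.34, adjusted p = 0.0225). Emp1, a tetraspan membrane protein, had 110 and 162 CPM at D1 and 37.2 and 56.2 CPM at D3 (log2 -1.56 ± 0.30, adjusted p = 0.0222). Prss23, a secreted serine protease, had 171 and 265 CPM at D1 and 36.6 and 81.4 CPM at D3 (log2 -1.96 ± 0.35, adjusted p = 0.0171). In each of these the D3 libraries were below both D1 libraries. Col6a1, a chain of the microfibrillar collagen VI, went from 102 and 124 CPM to 38.1 and 44.4 CPM (log2 -1.47 ± 0.32, adjusted p = 0.0383). S100a11, a calcium-binding protein, went from 180 and 280 CPM to 79.6 and 121 CPM (log2 -1.19 ± 0.27, adjusted p = 0.0479). Ezr, the membrane-to-actin linker ezrin, moved the other way, from 110 and 136 CPM to 259 and 321 CPM (log2 1.24 ± 0.21, adjusted p = 0.0158). Of the other motifs searched, TGACGTCA (CRE) was in 0 higher and 1 lower gene, TCAAGGTCA (Esrrb) in none of either, TGATGCAA (ATF4) in 0 and 1, AATATT (Sall4) in 2 and 3, and ATTTGCAT (octamer) in 2 and 2. Those counts are out of 79 higher and 62 lower genes with a window. Over the 9645 tested genes with a window, these motifs were in 3.65%, 0.29%, 0.664%, 3.73% and 1.61%, in the same order. A comparison of these shares is void too, since too few genes had a window. A match is a run of letters and not evidence that a factor binds there.

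Among metabolic genes, 2 of 21 glycolysis genes were higher, beside 0.831% of all genes. Slc2a3, the neuronal and embryonic glucose transporter, had 96.1 and 77.7 CPM at D1 and 262 and 172 CPM at D3 (log2 1.3 ± 0.28, adjusted p = 0.0360). Pdk1, the kinase that holds pyruvate back from mitochondria, went from 473 and 208 CPM to 867 and 616 CPM (log2 1.18 ± 0.26, adjusted p = 0.0441). Tdh, threonine dehydrogenase of mouse pluripotent cells, went from 146 and 74.2 CPM to 345 and 256 CPM (log2 1.48 ± 0.30, adjusted p = 0.0276). For all 3 genes both D3 libraries exceeded both D1 libraries. No gene passed among 28 of oxidative phosphorylation, 30 ribosomal proteins, 24 of cholesterol synthesis or 15 of fatty acid synthesis. Over all genes tested, 1.62% were called, so few or no calls would be found in lists of this size. In the cholesterol list 23 of 24 members were below 0 (median -0.36), against 50.8% of all genes.

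Among cell cycle genes, all 24 tested mitosis genes had a log2 change below 0 (median -0.54), against 50.8% of all genes. In 16 of them both D3 libraries were below both D1 libraries, against 18.9% of all genes. None was called. Aurkb, a mitotic kinase, had 39.3 and 44.5 CPM at D1 and 23.8 and 14.8 CPM at D3 (adjusted p = 0.114). Cdk1, the kinase that starts mitosis, had 116 and 82.0 CPM at D1 and 78.7 and 46.6 CPM at D3 (adjusted p = 0.171). Of 29 DNA replication genes 1 was lower, beside 0.784% of all genes. It was Rrm2, a ribonucleotide reductase subunit, at 237 and 259 CPM at D1 and 110 and 99.9 CPM at D3 (log2 -1.24 ± 0.26, adjusted p = 0.0360).

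**Figure D4:**
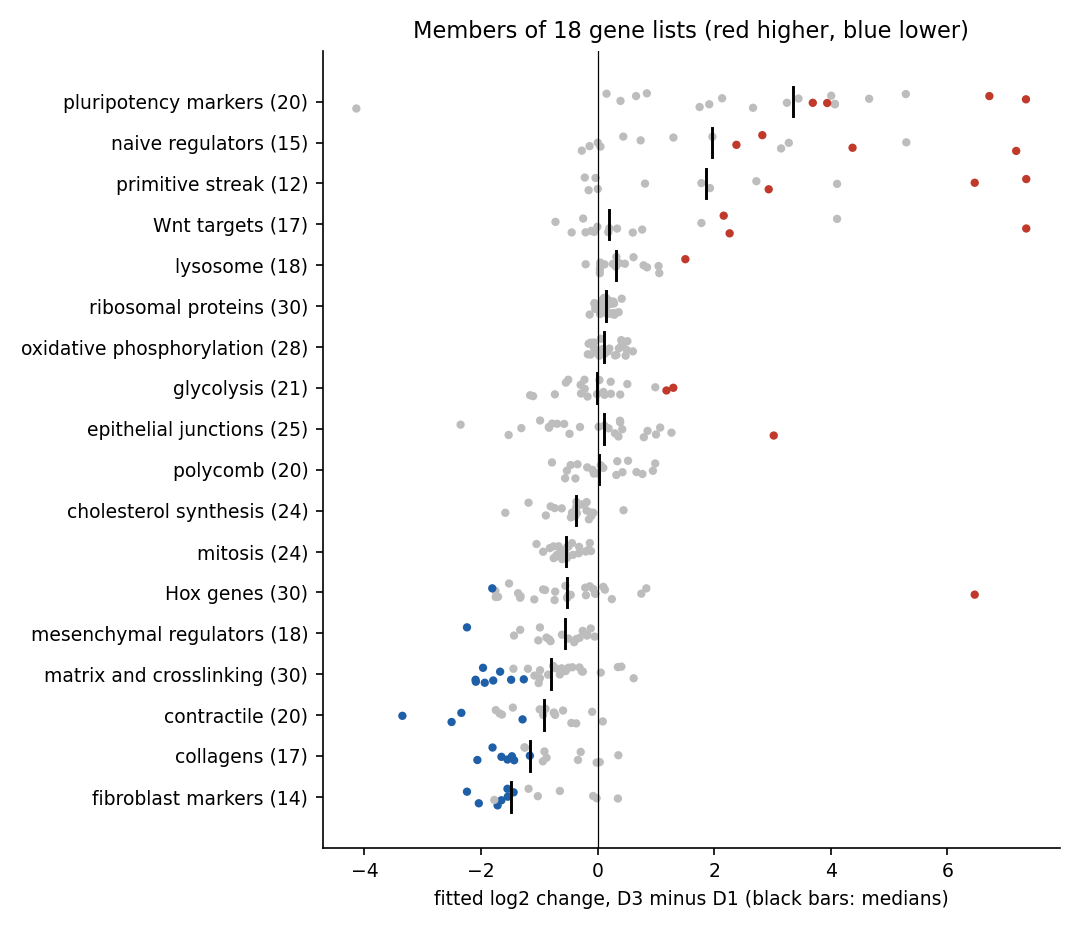
Fitted log2 change from D1 to D3 for each tested member of 18 gene lists, with the number tested in brackets; red and blue points were called higher and lower, grey points were not called, and black bars mark medians. Fibroblast markers and collagens lie furthest left (medians -1.49 and -1.16) and pluripotency markers furthest right, the latter including genes that passed the expression filter only through later days.

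Among chromatin genes, 1 of 10 DNA methylation enzymes was higher, beside 0.831% of all genes. Dnmt3b, a de novo methyltransferase of the early embryo, had 13.9 and 14.1 CPM at D1 and 53.2 and 37.0 CPM at D3, with no overlap (log2 1.72 ± 0.36, adjusted p = 0.0321). No gene was called among 14 of NuRD, 17 of BAF and 20 of polycomb complexes, nor among 20 histone methylation enzymes. Of all genes, 1.62% were called, a share at which lists of this size would hold few calls or none. The list medians were 0.01, -0.01, 0.02 and -0.03, in the same order. Chd4, the remodeller of NuRD, a complex that Sall4 is known to bind, had 541 and 632 CPM at D1 and 695 and 639 CPM at D3 (adjusted p = 0.798).

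To ask whether the changes of this step differed from those of the last step, which has the same length and shares no library with it, the 2 changes were compared in the same fit. The difference was called for 145 genes (1.14%), 88 with a more positive change from D1 to D3 than from D5 to D7 (0.69%) and 57 with a more negative one (0.447%). Of the 206 genes that changed from D1 to D3, 83 were among them, 60 of the rises and 23 of the falls, so for the other genes a difference between steps was not shown. Selenop changed by 3.95 from D1 to D3 and by -0.62 from D5 to D7, a difference of 4.58 (adjusted p = 0.00104). Pou5f1 differed by 4.27 (adjusted p = 0.0269), since it stood at 428 and 360 CPM at D5 and 333 and 324 CPM at D7. Cd248 differed by -2.88 (adjusted p = 0.00781), having levelled at 5.76 and 15.4 CPM at D5 and 8.21 and 17.0 CPM at D7. Loxl2, a lysyl oxidase, fell from 65.6 and 110 CPM to 24.4 and 38.5 CPM by D3 and stood at 87.7 and 69.8 CPM at D7, and its difference was -2.87 (adjusted p = 0.00696). With 1 library of these 4 days left out, the count stayed within 1.5 times of 145 only without D5 replicate 2. It moved further when any other of these libraries was left out.

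**Figure D5:**
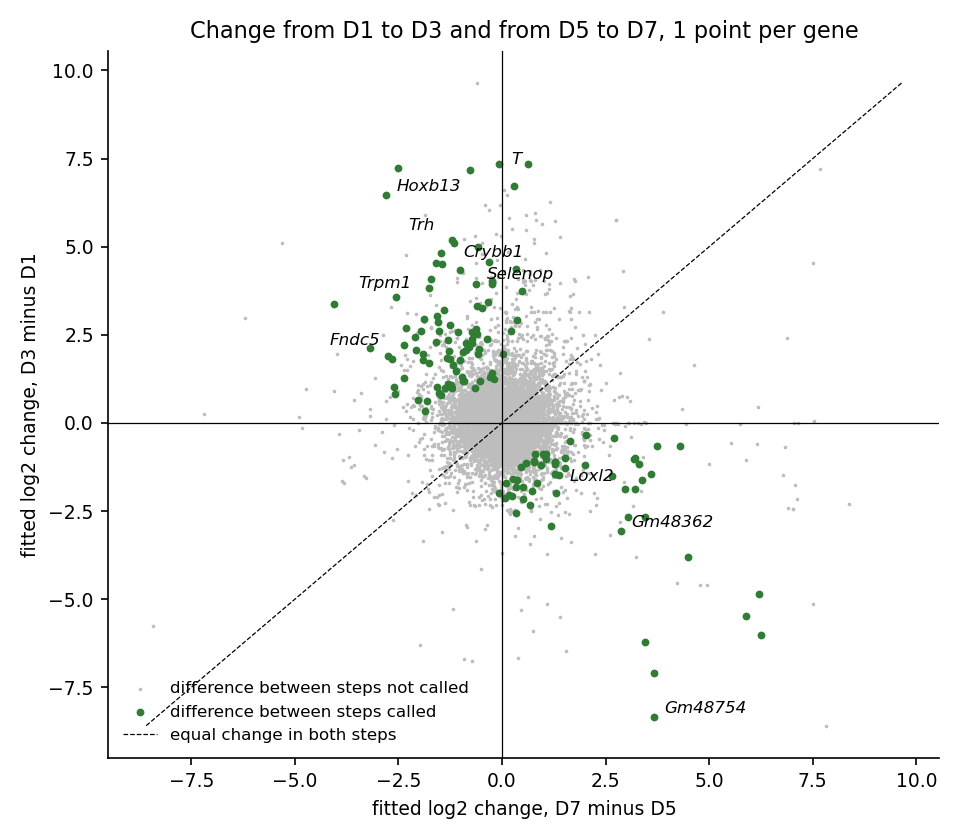
Fitted log2 change from D1 to D3 (y axis) against that from D5 to D7 (x axis) for 12752 genes; green points are the 145 genes whose changes differed between the steps and the dashed line marks equal change. Of these, 88 lie above the line and 57 below it, with Gm48754 lowest at the right.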

How the data were processed

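Messenger RNA libraries of 5 days, 2 each, were sequenced on a NextSeq 500, per the labels' protocols, which name 2 library kits and 2 sequencing kits without saying which library had which. Per the submitters' processing notes, bcl2fastq, Bowtie2 and RSEM were used with the build mm10; no source used here gives versions, annotation or strand setting. Per the file headers, the deposited files are RSEM gene tables, holding expected counts, TPM and FPKM as the authors obtained them. Expected counts in the deposited tables are unscaled estimates. The deposited TPM values served in 1 alternative, and FPKM went unused. RSEM shares reads between near-identical genes, so pseudogenes, Sprr2a and Hmga1 copies and overlapping genes are uncertain.

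All files held 54752 genes. Names and coordinates (1-based) came from GENCODE M21 on GRCm38, and 54723 identifiers matched. After rounding, expected counts went into edgeR (version 4.0.16, under R 4.3.3 with limma 3.58.1) and its quasi-likelihood test: TMM scaling, filterByExpr at a minimum of 10 counts (12752 genes), and 1 fit of all 10 libraries with terms for day and replicate number, giving 4 residual degrees of freedom. A gene was called when its p, adjusted by Benjamini and Hochberg over all genes tested, was under 0.05. Each SE is the size of the log2 change over the root of F. Replicate numbers were used as blocks because the series speaks of independent experiments. The deviations of libraries with the same number from their day means correlated in all 10 pairs of days (r 0.273 to 0.436). At each day the replicate 1 library was also deeper and had shorter fragments. The correlation therefore cannot tell a shared culture from shared depth or fragment length, and does not show that libraries are paired by culture. Within each day the pair of libraries was further apart than sampling of counts gives (chi-square 7.75 to 23.0 a gene) and both were kept.

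Named genes were the 12 largest rises and falls at a mean of at least 10 CPM, the 6 smallest p in each direction, a fixed panel, called members of 62 gene lists or their most expressed members, and the 6 largest differences between steps in each direction. Genes of the promoter section and in the closing observations were named after their values were seen. Axin2, Pdgfra, Dcn, Col3a1, Aurkb and Cdk1 were also named outside these rules. The members, lists and rules were chosen with earlier results of these data known. Alternatives were other scalings, filters and tools, no replicate block, only 4 libraries, and each library left out. DESeq2 1.42.0 was among them.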

Additional observations from a re-analysis of the deposited data

Results flagged for a closer look

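A closer look was prompted by 145 genes whose change from D1 to D3 differed from their change from D5 to D7, by the test of that difference in edgeR (adjusted p under 0.05). The 6 differences furthest above 0 among genes with a mean of at least 10 CPM over the 4 days were 9.27 for Hoxb13, 7.96 for Zscan10, 7.43 for T, 6.74 for Tdgf1, 6.43 for Dppa2 and 6.38 for Crybb1, on the log2 scale. Zscan10, T, Tdgf1 and Dppa2 had no count at D1, so these fitted differences depend on the prior count and are not bounds. Hoxb13 had 18 and 79.9 CPM at D5 and 7.13 and 3.26 CPM at D7, after 26.2 and 19.98 CPM at D3.

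The 6 furthest below 0 were -12.03 for Gm48754, -8.29 for Gm48422, -6.11 for Gm47939, -5.93 for Gm48362, -5.07 for Gm47761 and -5.03 for Tmem72. Of these, 4 are annotated as long intergenic RNAs and Gm48754 as antisense, and without the strand setting its reads cannot be told from those of a partner gene. The change of Gm48754 from D1 to D3 was -8.35 and ran from -8.96 to -2.53 over the alternatives. Its D3 against D1 call was lost with RLE scaling, the stricter filter, DESeq2, limma-voom and limma-trend. For Gm48422, not called for D3 against D1, that change ran from -7.31 to -1.78. The sizes of these 2 differences are therefore uncertain. Gm48362 had 45.6 and 40.3 CPM at D1, 7.85 and 2.96 CPM at D3, and 383 and 241 CPM at D7. Gm47761 had 70.1 and 75.6 CPM at D1, 18.6 and 23.7 CPM at D3 and 624 and 498 CPM at D7, while its D5 libraries were far apart at 130 and 10.7 CPM. Tmem72 had 14.2 and 2.12 CPM at D1 and 2.62 and 4.44 CPM at D3, which overlap.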

How the results depend on the processing

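The main count of 206 genes rests on the block for the replicate number. Without the replicate block 7 genes were called for D3 against D1 (Crybb1, Klf2, Selenop, Socs2, Sprr2a2, Trh and Trpm1; 1082 at an unadjusted p under 0.05) and 8 for the difference between steps. With single libraries left out the counts ran from 8 to 759 and from 9 to 1761. Without a filter on low counts they were 684 and 596, and DESeq2 called 232 for the difference between steps. A fit of only the 4 libraries called 992, and limma-trend on log2(TPM + 1), with a pseudocount of 1, called 61. Of the 206, 47 were called with every other scaling, filter and tool, and 5 under every alternative except the one without the block. RLE scaling (196), the stricter filter (194), DESeq2 (279) and limma-voom (228) kept the D3 against D1 count within 1.5 times. Of the 79 named genes that were called, 1 took the other sign under an alternative: Rpl14-ps1 ranged from -0.11 (without D1 replicate 1) to 3.96 with single libraries left out, and it had counts only in replicate 1. Of the 107 named genes that were not called, 41 took the other sign under at least 1 alternative. The causes of the other differences were not tested. With the first listed window of each gene only, an alternative added after seeing the data, the AP-1 site was in 11.3% of lower, 1.27% of higher and 4.44% of tested genes. Depth limits genes at a few CPM, above all in replicate 2, where 3 counts are about 2 CPM.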

Other observations

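Outside the gene lists lay 80 of the higher and 68 of the lower genes, and the following were picked after their values were seen. Apoe, the lipoprotein that carries cholesterol, had 319 and 329 CPM at D1 and 1233.5 and 1021 CPM at D3 (log2 1.83 ± 0.40, adjusted p = 0.0441 in edgeR). Pltp, which moves phospholipid between lipoproteins, went from 6.95 and 9.89 CPM to 46.5 and 88.8 CPM (log2 2.93 ± 0.40, adjusted p = 0.00403). Fabp3, a fatty acid binding protein, went from 45 and 55.8 CPM to 342 and 253 CPM (log2 2.61 ± 0.33, adjusted p = 0.00292). Glul, glutamine synthetase, went from 87.0 and 130 CPM to 422 and 480 CPM (log2 2.08 ± 0.26, adjusted p = 0.00292). In each of the 4 genes both D3 libraries were at least 2-fold above the higher D1 library. Socs2, a feedback inhibitor of cytokine receptors, went from 8.46 and 7.06 CPM to 42.4 and 40.7 CPM (log2 2.39 ± 0.31, adjusted p = 0.00292). Dmrt1, a gonadal transcription factor, had 15.4 and 11.1 CPM at D3 after 0.604 and 0.706 CPM at D1 (adjusted p = 0.00721).

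Some called genes had lower values at D7 than at D3. Col9a2, a cartilage collagen, had 121 and 53 CPM at D1, 819 and 480 CPM at D3 and a mean of 83.6 CPM at D7, and its change differed from that of the last step by 4.43 (adjusted p = 0.00984). Fndc5, the irisin precursor, had 28.7 and 5.65 CPM at D1, 107 and 57.0 CPM at D3 and a mean of 4.66 CPM at D7 (difference 4.56, adjusted p = 0.0162). Il18r1, an interleukin 18 receptor chain, had 1.51 and 1.41 CPM at D1, 15.1 and 22.9 CPM at D3 and 0.324 CPM on average at D7 (difference 6.13, adjusted p = 0.0348). All 3 genes rose in both replicates.

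Among the falls outside the lists, Axl, a receptor tyrosine kinase of mesenchymal cells, went from 139 and 273 CPM to 33.4 and 72.5 CPM (log2 -1.98 ± 0.28, adjusted p = 0.00635). Eng, the TGF-β co-receptor endoglin, went from 373 and 333 CPM to 95.6 and 121 CPM (log2 -1.74 ± 0.33, adjusted p = 0.0215). Wnt5a, a non-canonical Wnt ligand, went from 207 and 251 CPM to 61.6 and 115 CPM (log2 -1.42 ± 0.26, adjusted p = 0.0187). None of the 3 overlapped between days. Hmga1 and its near copy Hmga1b, which share reads, were both called lower. Hmga1 went from 536 and 1503 CPM to 275 and 511 CPM (adjusted p = 0.0215). Hmga1b went from 284 and 959 CPM to 131 and 258 CPM (adjusted p = 0.0144).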
